A study of Mus musculus with 15 samples.

Results

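Autophagy delivers cell material to the lysosome, and the lysosome digests it in an acid lumen. The genes described here encode the machinery of both steps. They are the 47 protein-coding genes, of 22219 in the annotation used, whose symbol starts with Atp6v, or with Atg and a digit, together with Becn1, Ulk1, Ulk2, Sqstm1, Tfeb, Tfe3, Lamp1 and Lamp2. The choice used names only and no measured value.

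Atp6v genes encode the subunits of the vacuolar proton pump, which acidifies the lysosome. Its V1 sector lies in the cytosol and hydrolyses ATP, and its V0 sector lies in the membrane and passes protons. Atg genes, Ulk1, Ulk2 and Becn1 encode the proteins that start, extend and close the autophagosome. Sqstm1 (p62) carries cargo into it, and Lamp1 and Lamp2 coat the lysosomal membrane. TFEB and TFE3 are transcription factors that switch on many of these genes through a sequence that contains CACGTG, the same E-box hexamer that Myc binds with its partner Max. Miz1, encoded by Zbtb17, is a zinc finger protein that binds DNA and also binds Myc.

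Chromatin immunoprecipitation with sequencing had mapped Myc (antibody N262) and RNA polymerase II (RNAPII, antibody N20) in 3T9-MycER cells. These are mouse embryonic fibroblasts of stage E13.5 with c-myc flox/flox alleles, infected with a pBabe bleomycin vector for MycER, a Myc fusion that 4-hydroxytamoxifen (OHT) activates. OHT was given at 400 nM, and the libraries are from 0, 10, 20 and 30 min and from 2 h and 4 h. Every fibroblast library carries MycER and the floxed alleles, also the one at 0 min, and no line without MycER was used here, so Myc peaks cannot be divided between the fusion and the cell's own Myc. Antibody 10E2 had been used to map Miz1 in this fibroblast line, untreated, and in splenic B cells of wild-type C57BL/6 mice of 6 to 8 weeks, enriched on B220 beads. Of the 15 samples, 14 have peak lists and the other is an input library. Each condition is 1 library of 1 line or cell preparation. Differences between times therefore carry no replicate check, and p-values are not given.

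Between 28132063 and 33431447 tags entered each Myc call. The RNAPII libraries held 15276996 tags at 0 min and 36396286 at 20 min, with the other 4 between 16268203 and 19999678. The Miz1 libraries held 10164509 tags in fibroblasts and 24237295 in B cells. As a check of the cells, RNAPII lay at the promoters of 7 of 8 fibroblast markers at 0 min (Thy1 was the exception) and of 1 of 8 B cell markers (Ebf1). The B cell Miz1 list had peaks at 2 of 8 B cell markers (Cd79a and Cd22) and 0 of 8 fibroblast markers, and the fibroblast Miz1 list at none of either. Miz1 is not a general mark of expressed genes, so these counts do not check the cell type. A promoter peak is a peak that overlaps the 1000 bp either side of a protein-coding transcription start site (TSS). Fold enrichment is the authors' own ratio of ChIP to control at a peak. It ranks genes within a list, and values from different lists, though set side by side here, do not measure a change.

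CACGTG lay within 100 bp of the Myc summit, the highest point of the peak, at 10 of the 38 genes of the set with a Myc promoter peak after 4 h. The 8 with the highest fold enrichment are printed, because they place the TFEB and Myc hexamer at the Myc summit. Each sequence reads 5′ to 3′ on the strand of the gene, from the mm9 genome, with CACGTG in capitals.
Atg5 (chr10:43988119-43988148, plus strand): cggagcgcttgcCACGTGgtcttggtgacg
Atp6v1c1 (chr15:38591682-38591711, plus strand): tgctccggctggCACGTGacttgctctggg
Atp6v0b (chr4:117559935-117559982, minus strand): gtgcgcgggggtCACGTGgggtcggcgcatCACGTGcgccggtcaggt
Atp6v1h (chr1:5073158-5073201, plus strand): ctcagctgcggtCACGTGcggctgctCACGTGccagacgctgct
Atp6v0e (chr17:26813332-26813361, plus strand): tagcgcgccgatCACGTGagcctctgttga
Lamp1 (chr8:13159088-13159163, plus strand): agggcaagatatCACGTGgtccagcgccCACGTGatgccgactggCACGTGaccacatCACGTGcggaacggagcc
Lamp1 (chr8:13159209-13159238, plus strand): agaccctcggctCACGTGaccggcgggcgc
Atp6v1f (chr6:29418045-29418074, plus strand): taacctgggtgtCACGTGgtgatggggacc
Atg10 (chr13:91363352-91363381, minus strand): taggaatgtgctCACGTGaccttgaaacaa

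At Lamp1, which encodes an abundant lysosomal membrane glycoprotein, 6 copies of CACGTG lay within 100 bp of the 4 h summit. Counted at the base just before the centre of each hexamer, they sat at -33, -17, 0, 13, 88 and 115 bp from the TSS, on both sides of the start of the gene, and the first 5 are printed. Of the 10378 genes bound by Myc at the promoter after 4 h, Lamp1 was the only 1 with at least 6 copies in that window (0.00964%), and 17 genes had at least 3. Of the 6 copies, 2 read TCACGTGA, an extended form. The Lamp1 Myc peak had a fold enrichment of 11.3, 10.4, 13.5, 12.3, 19.1 and 15.5 from 0 min to 4 h, and ranked at the 40.0 percentile of all bound genes at 4 h.

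Pairs of copies were found at Atp6v0b, a V0 proteolipid subunit, at -33 and -15 bp, and at Atp6v1h, the V1 subunit that regulates the ATPase, at -82 and -68 bp. With Lamp1 these made 3 genes of the set with at least 2 copies, beside 1.56% of all genes bound at that time. The copy at Atg5, which encodes the protein joined to ATG12 in autophagosome growth, was 31 bp upstream of the TSS. The copy at Atp6v1c1, a V1 stalk subunit, was 37 bp downstream in the 5′ untranslated region (5′ UTR), and the copy at Atg10, the conjugating enzyme that joins ATG12 to ATG5, was 226 bp downstream in an intron. The copy at Atp6v0e lay in a 5′ UTR, 5 bp downstream of the nearest TSS and at -11 bp from the TSS nearest to the Myc summit. The copy at Atp6v1f lay at -9 bp from the nearest TSS, within another transcript (intron). The remaining 2 genes, Atp6v1e1 and Atg14, had lower folds of 8.05 and 5.43.

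**Figure D1:**
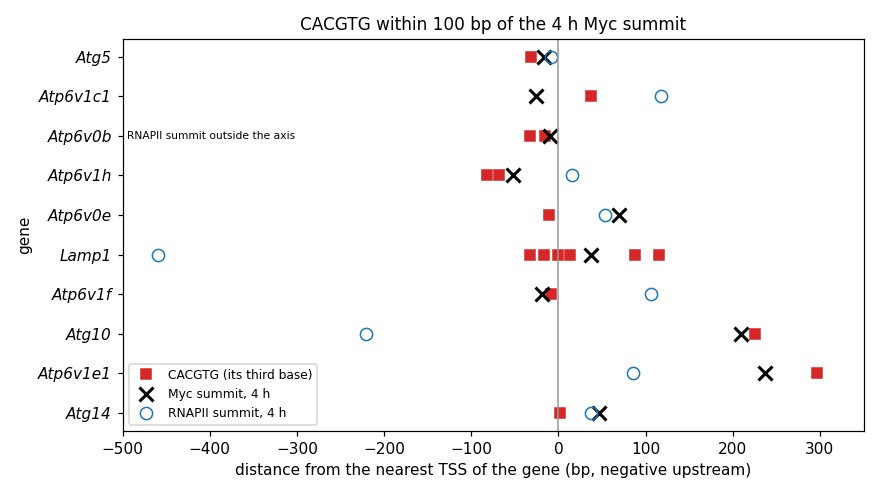
Distance from the nearest TSS of the gene (x axis, bp, negative upstream) of each CACGTG (red squares), the Myc summit (crosses) and the RNAPII summit (circles) at 4 h, for the 10 genes with CACGTG within 100 bp of the Myc summit, in order of Myc fold enrichment. Lamp1 has 6 copies between -33 and 115 bp, and the RNAPII summit of Atp6v0b lies at -4669 bp, outside the axis. The Atp6v0e copy is drawn at -11 bp, from the TSS nearest to the Myc summit, and lies 5 bp downstream of its own nearest TSS.

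As a share, the 10 of 38 genes came to 26.3% (Wilson 95% interval 15.0 to 42.0%, for counting error only), beside 17.5% of all genes bound then. At the 0 min summits it was 13 of 37, or 35.1% (21.8 to 51.2%), beside 18.9%. Atp6v1a, Atg2b, Atg3 and Atg12 had CACGTG near the summit at 0 min and not at 4 h, of which Atg12 had no peak at 4 h. At Atp6v1a, Atg2b and Atg3 the whole peak held as many copies at 4 h as at 0 min (3, 2 and 2), and the summit was called elsewhere in it. Atp6v1e1 had it at 4 h and no Myc peak at 0 min. At 4 h it was 6 of 16 pump subunits with a peak (37.5%, 18.5 to 61.4%) and 4 of 22 other genes (18.2%, 7.31 to 38.5%). At 0 min it was 6 of 14 (42.9%, 21.4 to 67.4%) and 7 of 23 (30.4%, 15.6 to 50.9%). The intervals overlap at both times.

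A second count used the 250 bp before to 50 bp after each TSS, without regard to peaks, and both strands, since CACGTG and TCACGTGA read the same on each. CACGTG occurred there in 11 of 47 genes (23.4%), beside 10.7% of all protein-coding genes. Among genes with RNAPII at 0 min it was 11 of 40 (27.5%), beside 14.5%. TCACGTGA, which contains CACGTG, occurred in Atp6v1a, Atp6v0d1, Atp6v0e and Atg3, which is 4 of 47 (8.51%), beside 1.42% of all genes. Among those with RNAPII it was 4 of 40 (10.0%), beside 2.48%. A match is a description of these letters and not a bound site.

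Myc lay at the promoters of most of the set before OHT. At 0 min 37 of 47 genes had a Myc promoter peak (78.7%, interval 65.1 to 88.0%), beside 44.7% of all protein-coding genes. The counts at 10, 20 and 30 min, 2 h and 4 h were 38, 40, 40, 41 and 38, beside 46.8%, 47.9%, 46.6%, 48.9% and 46.7% of all genes. A peak was present at all 6 times at 36 genes (76.6%, interval 62.8 to 86.4%), beside 43.3%, and at some times at 5, beside 6.27%. At 6 genes it was present at no time, beside 50.4%. Among genes that carry RNAPII the counts were near the background. Of the 40 genes of the set with an RNAPII promoter peak at 0 min, 35 had Myc at all 6 times, beside 87.7% of all such genes. At 0 min 36 of the 40 had Myc, beside 89.6%, and at 4 h 37, beside 92.2%.

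**Figure D2:**
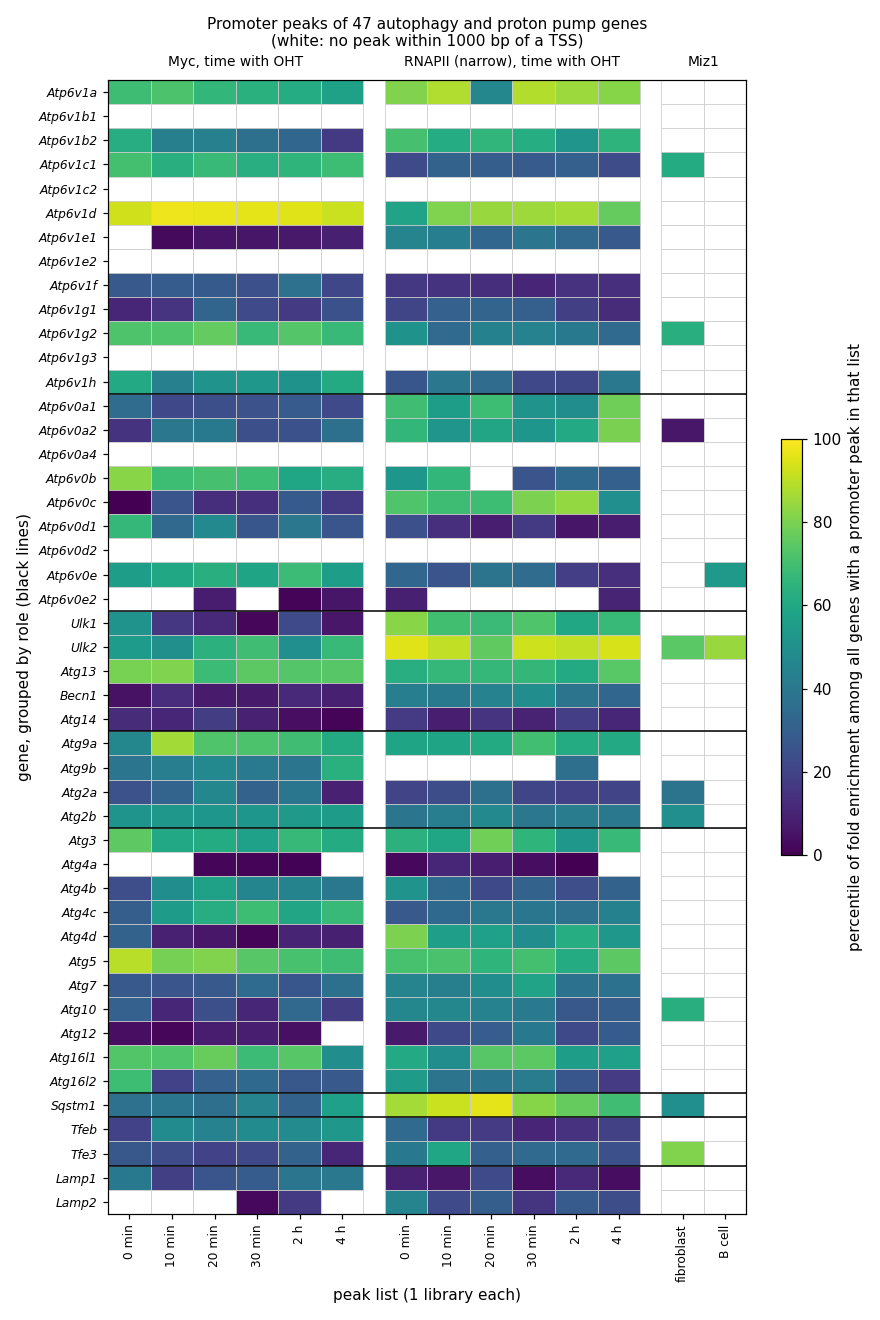
Each row is 1 of the 47 genes, grouped by role, and each column 1 peak list (Myc and RNAPII at 6 times, Miz1 in fibroblasts and B cells). The colour is the percentile of the fold enrichment of the promoter peak among all genes with a promoter peak in that list, and white means no peak. The 6 rows that are white throughout are all pump isoforms, while most other rows are filled across the Myc and RNAPII columns.

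The 6 genes without a Myc peak at any time were all pump subunits of restricted tissues, Atp6v1b1, Atp6v1c2, Atp6v1e2, Atp6v1g3, Atp6v0a4 and Atp6v0d2. These isoforms are known from kidney, inner ear, testis, osteoclasts and other specialised cells. None of the 6 had an RNAPII or Miz1 promoter peak in any list either. The other such isoform, Atp6v1g2 of neurons, was bound by Myc, RNAPII and fibroblast Miz1, but the TSS of Nfkbil1 lies within 1000 bp. Its Myc summit at 0 min was nearest to Nfkbil1, as were its RNAPII summit and the higher of its 2 Miz1 peaks, while the Myc summit at 30 min and the lower Miz1 peak (5.21-fold) were nearest to Atp6v1g2. The peaks cannot be divided between the 2 genes. All of the other 15 pump genes had RNAPII at 0 min, beside 47.5% of all genes. Of the 15, 13 (86.7%) had Myc at all 6 times, near the 87.7% of all genes with RNAPII.

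Of these 15, Atp6v1e1 and Atp6v0e2 lacked Myc at some times. Atp6v1e1, the V1 E subunit of the peripheral stalk, had no Myc peak at 0 min and one at each later time, with folds of 6.26, 7.45, 7.05, 8.26 and 8.05. At 4 h it ranked at the 8.7 percentile of all bound genes (84 tags), while RNAPII was present at all 6 times (27.6-fold at 0 min, 18.8-fold at 4 h). Its 4 h summit was in an intron, 237 bp downstream of the TSS. Atp6v0e2 had Myc at 20 min, 2 h and 4 h (8.27, 5.47 and 7.26-fold) and an RNAPII narrow peak only at 0 min and 4 h (11.4 and 11.6-fold), with no broad peak at any time.

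The strongest Myc peak of the set was at Atp6v1d, a V1 rotor subunit, with folds of 33.3 at 0 min, then 69.8, 70.1, 59.1 and 70.7, and 49.4 at 4 h. It was the only gene of the set in the highest 20% of bound genes at 4 h (20.1% of all bound genes with ties). Its summit, however, was 467 bp upstream of Atp6v1d at 4 h and nearest to the TSS of Eif2s1, a translation initiation factor gene that starts beside it. At 0 min the highest 20% held Atg5 (28.6-fold), Atp6v0b (23.3-fold) and Atp6v1d. At the other end, Atp6v0c, the main proteolipid of the V0 ring, had 4.29-fold Myc at 0 min, the lowest of the set. The median of all bound genes in that list was 12.9-fold. Its RNAPII fold at 0 min was 41.1, in a list with a median of 29.5-fold.

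Among the V1 subunits with their own promoter, Atp6v1c1 had Myc folds of 17.8, 23.3, 28.6, 22.1, 30.4 and 25.6 from 0 min to 4 h. Atp6v1h had 15.1, 16.5, 21.3, 18.6, 23.4 and 22.1, and Atp6v1f, a rotor-linked subunit, had 9.35, 12.9, 13.9, 11.3, 18.4 and 11. In V0, Atp6v0b had 23.3, 25.7, 30.3, 24.5, 27.2 and 22.8. The a subunits Atp6v0a1 and Atp6v0a2 were lower at 0 min, at 10.5-fold and 7.56-fold. For Atp6v1a, the catalytic subunit, Myc was 17.5-fold at 0 min and 20.8-fold at 4 h, in a peak that also held the TSS of Naa50. Atp6v1b2, the other part of the catalytic core, had 15.6-fold at 0 min and 9.93-fold at 4 h beside the TSS of Slc18a1, and Atp6v1g1, a stalk subunit, 7.04 and 11.8-fold. Atp6v0d1, which links V1 to V0, had 16.8 and 12.1-fold, and Atp6v0e, a small V0 subunit, 13.9 and 20.1-fold.

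In the initiation group all 5 genes had Myc at all 6 times (interval 56.6 to 100%), beside 87.7% of all genes with RNAPII at 0 min. All 5 also had an RNAPII narrow peak at all 6 times, beside 43.5% of all genes. Ulk2, a kinase that starts autophagosome formation, had Myc folds of 13.8, 18.5, 26.7, 25.1, 23.0 and 25.0. Its paralogue Ulk1 had 13.1, 9.87, 9.31, 5.66, 13.6 and 7.39, so the 2 kinases were close at 0 min and lay far apart in rank at 4 h (67.2 and 6.2 percentile). Becn1, a subunit of the lipid kinase complex, and Atg14, its targeting subunit, were low at 0 min (5.80 and 7.25-fold) and at 4 h (8.02 and 5.43-fold). Atg13, the regulator of the kinase complex, had 21.7-fold Myc at 0 min, with the summit nearest to Harbi1.

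The 4 genes of membrane supply also had Myc at all 6 times, beside 43.3% of all genes and 87.7% of those with RNAPII at 0 min. Of the 4, 3 had RNAPII at 0 min, beside 47.5% of all genes. For Atg9a, a lipid scramblase of the vesicles that seed the autophagosome, the folds were 12.2, 40.8, 31.6, 26.3, 33.2 and 22.1. Its paralogue Atg9b lacked an RNAPII narrow peak except at 2 h, and its Myc summit was 1436 bp upstream of the gene and nearest to Abcb8, so that the peak came within 1000 bp of the Atg9b TSS without covering it. The 4 h peak spans 23898262 to 23901324 on chromosome 5 and holds the TSS of Abcb8. Atg2a and Atg2b, the lipid transfer proteins, had 9.06-fold and 13.2-fold Myc at 0 min.

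All 11 conjugation genes had RNAPII at 0 min, beside 47.5% of all genes. Of the 11, 9 (81.8%) had Myc at all 6 times, beside 87.7% of all genes with RNAPII. Atg5 was the highest at 0 min, and Atg16l1, which carries the conjugating complex to membranes, had folds of 18.8, 28.0, 35.0, 24.4, 36.2 and 18.1. Atg4c, one of the 4 proteases that process the LC3 proteins, was at the 29.6 percentile of the 0 min list and the 67.3 percentile of the 4 h list (9.64 and 25.0-fold). Atg4d was at the 31.6 and 8.9 percentile (9.96 and 8.13-fold). Atg4a, on chromosome X, had Myc at 20 min, 30 min and 2 h only (5.87, 5.34 and 5.21-fold) and its peaks had summits nearest to Psmd10. Atg12, the ubiquitin-like protein, had Myc at all times but 4 h, with folds from 5.70 to 8.20, beside the TSS of Ap3s1. The remaining conjugation genes had Myc throughout. They were Atg3, the conjugating enzyme for the LC3 proteins (19.4-fold at 0 min and 22.4-fold at 4 h), and Atg4b, the main LC3 protease (8.84 and 15.6-fold). Next to these were Atg7, the activating enzyme (9.35 and 14.6-fold), Atg10 (9.80 and 10.2-fold) and Atg16l2, the paralogue of Atg16l1 (17.4 and 12.4-fold). For Atg3 and Atg4b the 4 h summit was nearest to Slc35a5 and Thap4.

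Sqstm1 had Myc at all 6 times by the window rule, but the summit of its highest-fold peak was nearest to Mgat4b in each list. Up to 2 h 1 peak spanned both genes' TSSs (50023039 to 50027849 on chromosome 11 at 0 min). At 4 h there were 2 peaks. The one with the higher fold (20.6-fold, 50024897 to 50027621) had its summit 2355 bp upstream of Sqstm1, and the other (14.8-fold, 50023083 to 50024828) 182 bp downstream of a Sqstm1 TSS. Lamp2, the other lysosomal coat protein, had Myc at 30 min and 2 h (5.96 and 11.8-fold) and RNAPII at all 6 times, from 14 to 27.5-fold. Of the 2 LAMP genes, then, only Lamp1 had Myc throughout. In all, 12 of 47 genes had another coding TSS within 1000 bp, beside 12.3% of all genes. Of the 35 without one, 27 had Myc at all 6 times, beside 38.1% of all such genes. At 4 h the summit was nearest to another gene's TSS at 7 of 38 genes, beside 11.8% of all bound genes.

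The genes of the 2 transcription factors were bound at all times and differed in where. Tfeb, named Tcfeb in the annotation, has 11 coding TSSs over a long stretch of chromosome 17. A Myc peak lay at its upstream TSSs at all 6 times, with folds of 8.25, 10.5, 10.7, 10.3, 15.1 and 9.21. A second lay at an internal TSS 26140 bp further on, with folds of 6.72, 17.9, 18.9, 17.0, 22.2 and 19.3. RNAPII was called at the upstream TSSs at all 6 times (22.9-fold at 0 min, 15.5-fold at 4 h) and within 1000 bp of the internal TSS in no list, narrow or broad. The internal peak of 4 h (47898926 to 47900719) had its summit in an intron, 477 bp from that TSS. Tfe3 (Tcfe3) had a single Myc peak of 2561 bp at 0 min over its 5′ cluster of TSSs, at 9.27-fold, and 8.64-fold at 4 h.

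Within each Myc list the set ranked a little below the middle. The median fold was 11.3 at 0 min, 15.8 at 10 min, 18.6 at 20 min, 13.8 at 30 min, 19.1 at 2 h and 15.6 at 4 h. Over all genes with a Myc promoter peak it was 12.9, 18.5, 20.7, 17.6, 23.2 and 18.3. At 4 h 21 of the 38 genes were below the median of all bound genes, and at 2 h 27 of 41. At 0 min the highest 20% (20.0% of all bound genes) began at 22-fold and held 3 of the 37.

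**Figure D3:**
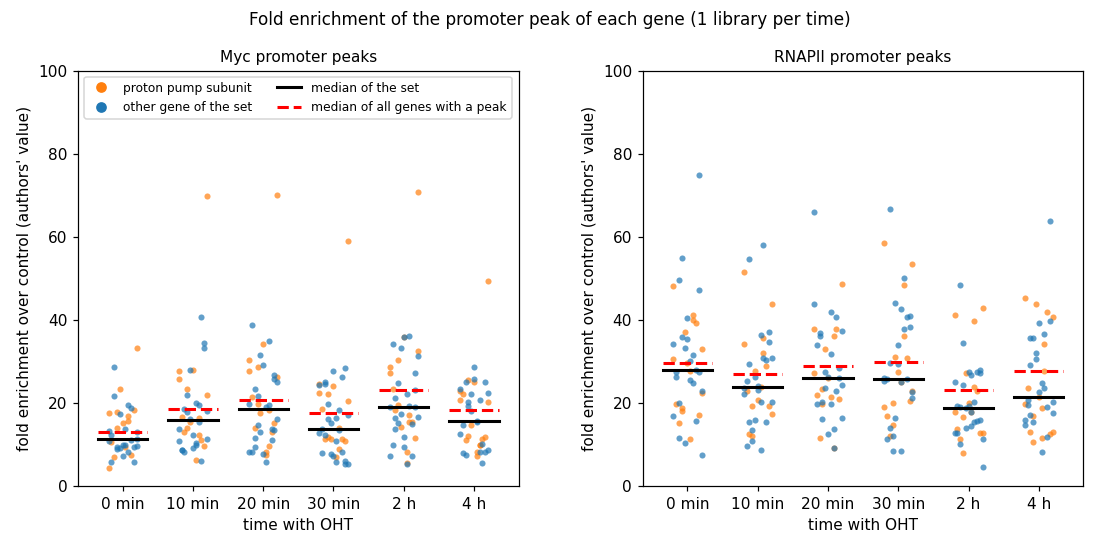
Fold enrichment of the promoter peak (y axis, the authors' value) of each gene of the set with a peak, by time with OHT, for Myc (left) and RNAPII narrow lists (right), with 1 library per time. Orange points are pump subunits, blue points the other genes. The black line is the median of the set and the red dashed line that of all genes with a promoter peak. The black line lies below the red one in all 12 lists, and the highest Myc point at each time is Atp6v1d.

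RNAPII lay at 40 of 47 promoters at 0 min (85.1%, interval 72.3 to 92.6%), beside 47.5% of all genes. The counts at the later times were 39, 38, 39, 40 and 39, beside 47.3%, 48.4%, 46.4%, 46.3% and 46.8%. At all 6 times it lay at 37 (78.7%), beside 43.5%. At 6 genes it was called at no time, beside 50.0%. In the broad lists, which came from another version of the caller, the counts were 39, 39, 39, 37, 38 and 37. The shares of all genes were 44.4%, 44.9%, 46.8%, 43.3%, 43.8% and 43.8%. There 35 genes had it at all 6 times, beside 41.3%. The genes in the highest 20% by RNAPII fold at 0 min were Ulk2 (75.0-fold), Sqstm1 (54.8-fold), Ulk1 (49.5-fold), Atp6v1a (48.2-fold) and Atg4d (47.2-fold). None of these 5 was among the 3 genes of the set in the highest 20% for Myc at 0 min (20.0% of all bound genes). The share of all genes that are in both was not computed, so no contrast between Myc and RNAPII is drawn. At 4 h the highest 20% by RNAPII fold (20.1% of all bound genes) held Ulk2 (63.8-fold), Atp6v1a (45.2-fold) and Atp6v0a2 (43.7-fold).

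Atp6v0b was missing from the narrow list of 20 min and Atg4a from that of 4 h, and each was in the other 5. The Atp6v0b narrow peak was 13125 bp long at 0 min and 25479 bp at 4 h, and held the TSSs of Dph2 and B4galt2 as well. In the 20 min library the broad list has a peak there of 27.6-fold. At 30 min, 2 h and 4 h the summit of its narrow peak was nearest to Dph2. At Ulk2 RNAPII folds were 75.0, 54.7, 41.9, 66.8, 48.5 and 63.8, and the gene was at the 95.1 percentile at 0 min and the 93.8 percentile at 4 h.

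RNAPII over the body of a gene was measured as the percent of the gene, without its first 1000 bp, under narrow peaks. It was computed for 39 genes of the set, those of at least 3000 bp with RNAPII at the promoter at 0 min. For most it was low at every time. The median was 1.20% at 0 min, 3.19% at 10 min, 3.40% at 20 min, 1.5% at 30 min, 2.26% at 2 h and 1.18% at 4 h. Over 9763 genes chosen the same way it was 4.82%, 8.83%, 12.5%, 5.87%, 7.11% and 5.25%. The library of 20 min was the deepest and that of 0 min the shallowest, and their part in the differences between times was not tested.

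Cover more than 20 percentage points above that of 0 min was found at 3 of 39 genes at 10 min, 3 at 20 min, 2 at 30 min, 3 at 2 h and 1 at 4 h. Over all genes the shares were 12.9%, 22.1%, 9.22%, 10.5% and 7.32%. The genes were Lamp1, Atg16l1 and Atp6v1c1. Cover more than 20 points lower was found at 0, 1, 0, 1 and 0 genes, beside 1.77%, 2.13%, 4.04%, 3.49% and 4.86%. The genes were Atp6v0b at 20 min, through its missing peak, and Atp6v1g1 at 2 h. Lamp1 had 8.03% of its body covered at 0 min, then 88.1%, 100%, 55.1%, 56.0% and 75.5%. Atg16l1 had 0.655%, 29.8%, 81.0%, 26.3%, 29.9% and 10.7%. Atp6v1c1 had 2.87%, 34.0%, 34.5%, 2.85%, 44.2% and 20.9%, so its cover at 30 min was near that of 0 min.

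The broad lists did not show these 3 differences, where cover reached at most 3.35% at Lamp1 and 0.751% at Atg16l1 and was 0 at Atp6v1c1. At Lamp1 the narrow peak of 20 min was 29082 bp long (13153078 to 13182159 on chromosome 8), at 16.3-fold. Its summit lay 19298 bp downstream of the TSS, past the end of the gene at 13175338. By fold the Lamp1 peak ranked between the 3.3 and the 22.6 percentile of the RNAPII lists.

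The reverse was seen at Sqstm1, whose body was covered at 100% in every narrow list. In the broad lists its cover was 25.9%, 66.6%, 93.6%, 50.6%, 31.0% and 4.19%, highest at 20 min in the deepest library and lowest at 4 h. Atp6v0c was covered at 100% up to 2 h and at 85.8% at 4 h. For Atg4d, another LC3 protease gene, narrow cover went from 53.4% at 0 min to 55.0% at 4 h, and broad cover from 21.5% to 42.6%. In the broad lists 2, 3, 1, 1 and 1 genes were over 20 points higher than at 0 min, beside 3.78%, 10.6%, 2.98%, 3.57% and 2.30%. These were Sqstm1 at 10, 20 and 30 min, Atp6v0b at 10 and 20 min and Atg4d at 20 min, 2 h and 4 h. Over 20 points lower were 0, 0, 0, 0 and 1, the last Sqstm1, beside 0.297%, 0.113%, 0.881%, 0.553% and 1.08%. Atp6v1g1, a V1 stalk subunit, had 69.2%, 54.4%, 74.2%, 67.5%, 40.9% and 51.6% in the narrow lists.

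**Figure D4:**
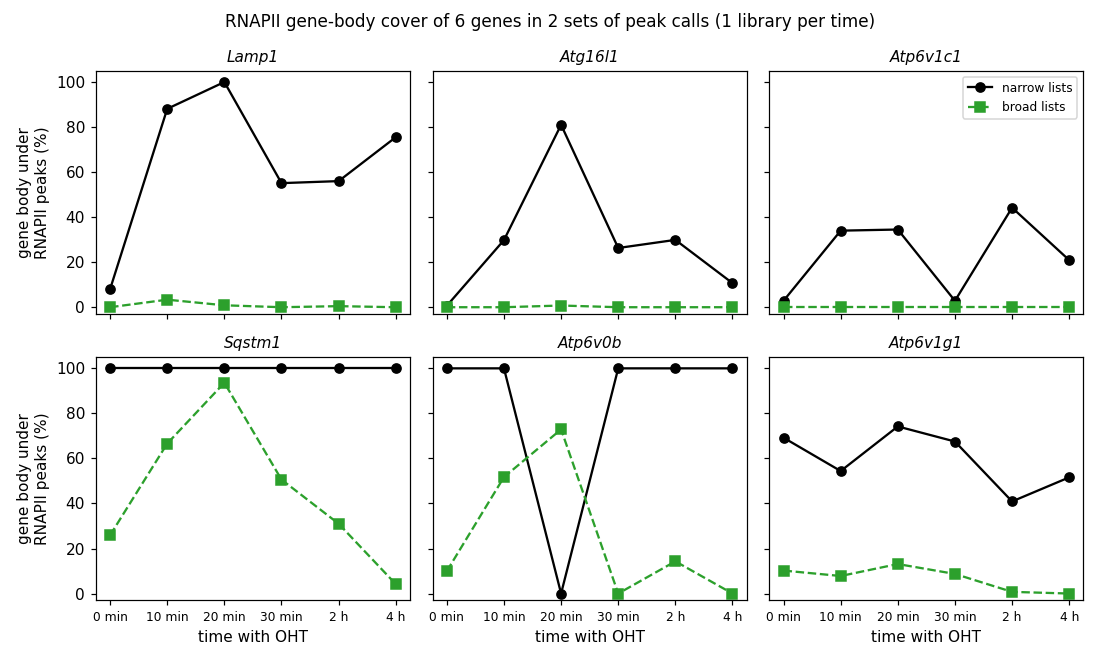
Percent of the gene body under RNAPII peaks (y axis) by time with OHT (x axis, not to scale) for 6 genes, in the narrow lists (black) and broad lists (green), with 1 library per time. Lamp1, Atg16l1 and Atp6v1c1 differ by over 20 points between times in the narrow lists and not in the broad ones, Sqstm1 in the broad lists and not in the narrow ones, and Atp6v0b falls to 0% at 20 min in the narrow list while the broad list gives 72.9%.

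Miz1 was at 9 of 47 promoters in fibroblasts without OHT (19.1%, interval 10.4 to 32.5%), beside 8.25% of all genes. Among genes with RNAPII at 0 min it was 9 of 40, beside 16.1%. All 9 carried RNAPII at 0 min and Myc at all 6 times, as did 87.8% of all genes with a fibroblast Miz1 promoter peak. The highest was Tfe3 (13.4-fold), followed by Ulk2 (11.2-fold), Atg10 and Atp6v1g2 (8.94-fold each) and Atp6v1c1 (8.21-fold). Atg2b and Sqstm1 followed at 7.45-fold, then Atg2a at 6.70-fold and Atp6v0a2 at 4.37-fold. The peaks were low, with a pileup of 9 to 18 at the summit. For the higher Atp6v1g2 peak the summit was nearest to Nfkbil1 and for Atg2b to 4933433P14Rik.

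At Atp6v1c1 the Miz1 summit of untreated cells lay 20 bp upstream of the TSS. The Myc summit lay 28 bp upstream at 0 min and 26 bp upstream after 4 h with OHT. In B cells Miz1 was at 2 of 47 promoters, beside 5.48% of all genes. These were Ulk2, at 35.8-fold with a pileup of 106, and Atp6v0e, a small V0 subunit, at 10.7-fold. Ulk2 alone was bound in both lists (2.43% of all genes were), with summits 35 bp apart and 116 and 81 bp upstream of its TSS. The lists were called at different cutoffs, 0.01 in fibroblasts and 1e-05 in B cells, so their lengths cannot be compared. ATCGAT, a palindrome counted on both strands, was within 100 bp of the summit in none of these peaks, beside 2.45% and 3.37% of the bound genes.

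Of 20 further autophagy genes, 19 had Myc at 0 min (44.7% of all genes did) and 18 at 4 h (46.7%), and all 20 had RNAPII at 0 min (47.5%). The 1 without Myc at 0 min was Optn, a cargo receptor. Of 24 further lysosomal genes, mainly hydrolases and membrane proteins, 20 had Myc at 0 min and 22 at 4 h, and 23 had RNAPII at both. Of 16 genes of the kinase complex mTORC1, its regulators and the relatives of TFEB, 14 had Myc at 0 min and at 4 h, and 13 had RNAPII at 0 min. Of all genes with RNAPII at 0 min, 89.6% had Myc at that time. Fibroblast Miz1 was at 5, 4 and 6 genes of these lists, beside 8.25% of all genes and 16.1% of those with RNAPII, the last Rptor, Mlst8, Flcn, Tsc1, Lamtor1 and Lamtor2. B cell Miz1 was at 3, 2 and 5, beside 5.48%, the last Mlst8, Flcn, Fnip1, Tsc1 and Lamtor2.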

How the data were processed

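The submitters' processing notes name BWA 0.6.2-r126 and the mm9 build. Per the file headers, peaks were called in 1 library at a time against a control. Myc and narrow RNAPII lists came from MACS 1.4.2, broad RNAPII and Miz1 lists from MACS 2.0.9. The p cutoff was 1e-08 except for Miz1. Tag counts per peak, fold enrichment (a ratio), a percent false discovery rate and a score of −10 times log10 p are the authors' values in the MACS 1.4.2 lists. The MACS 2.0.9 lists hold the authors' pileup signal, fold and −log10 p and q. Depth differed between libraries and can change which weak sites pass.

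Here peaks were joined by at least 1 bp to windows of 1000 bp around coding TSSs of GENCODE vM1 on NCBIM37, without mitochondrial genes. Where several peaks met a gene, the one with the highest fold was used. Tfeb and Tfe3 were matched through older symbols. Motifs were counted with pysam 0.24.0. Intervals are Wilson 95% intervals from scipy 1.17.1, for counting error only. The joins were tested on simulated peaks. Every gene of the set was accounted for, and sequences were printed for up to 8 genes with CACGTG at the 4 h summit by fold. The members and gene lists were chosen with earlier results of these data known.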

Additional observations from a re-analysis of the deposited data

How the results depend on the processing

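Windows of 500 or 2000 bp, a summit within 1000 bp, equal numbers of peaks per list and the broad RNAPII lists each left the promoter counts within 1.5 times those reported. When peaks below their list's median fold were dropped, Myc promoter counts were 23, 24, 30, 25, 32 and 23 from 0 min to 4 h. The filter shortens every list, and the shares of all genes under it were not computed. In the broad lists mean gene-body cover was 3.95%, 6.00%, 9.04%, 3.90%, 4.03% and 2.81% from 0 min to 4 h, against 14.9%, 19.6%, 19.5%, 16.9%, 18% and 16.4% in the narrow lists. In the broad lists the number of genes over 20 points higher than at 0 min was 2, 3, 1, 1 and 1 from 10 min to 4 h. It was 3, 3, 2, 3 and 1 in the narrow lists. With narrow peaks above the median fold it was 0 at 10 min, 3 at 20 min, 0 at 30 min, 1 at 2 h and 0 at 4 h. The shares of all genes under that filter were not computed. The cause was not tested. For CACGTG at summits, windows of 50 or 200 bp, the addition of CACGCG and the 0 min list kept the count within 1.5 times. No paired analysis was possible because each group holds 1 library. The Myc list of 0 min, from the deepest Myc library (33431447 tags), lacks Atp6v1e1, Atp6v0e2, Atg4a and Lamp2. It has the fewest peaks of the Myc lists (19995). The list of 10 min, from the shallowest library (28132063 tags), holds Atp6v1e1 and also lacks Atp6v0e2, Atg4a and Lamp2. The part of depth in these calls was not tested.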
